A study of Mus musculus with 6 samples.

Results

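The glycolysis and gluconeogenesis genes were examined in cultured muscle satellite cells (SCs), the stem cells of skeletal muscle. The members were the 64 genes, of 55416 in the deposited table, whose pathway annotation named the mouse KEGG map of glycolysis and gluconeogenesis. The map also holds lactate dehydrogenase, the pyruvate dehydrogenase complex and a group of aldehyde, alcohol and acetate enzymes, so the 64 genes were described by role. Of them, 39 had a mean of at least 1 TPM (a level scaled to the library and already divided by transcript length, so that genes can be compared) and 25 did not, 6 of which were listed at 0 TPM in every library. The triosephosphate isomerase gene *Tpi1* and the heart form of lactate dehydrogenase, *Ldhb*, carried no pathway annotation in the table and were therefore not members. *Tpi1* lay at 403 to 455 TPM and *Ldhb* at 39.0 to 45.6 TPM.

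The study compared SCs of wild-type (WT) mice with SCs of *Ltf*-KO mice, a systemic deletion of the lactoferrin gene made by CRISPR-Cas9 in C57/BL6N zygotes. Each genotype had 3 libraries. SCs were flow-sorted from hind leg muscle and grown untreated for 4 days on Matrigel in medium with fetal bovine serum, chick embryo extract and basic fibroblast growth factor. The study's methods give adult mice of 8 to 10 weeks as the general rule, a sort for cells positive for α7-integrin and CD34 and negative for Sca1 and CD11b, and no statement of the sex of the animals or of whether libraries came from separate animals, so p-values measure only the spread between these samples. *Ltf* itself lay between 0 and 0.12 TPM in all 6 libraries, WT included (0.12, 0.02 and 0.02 TPM in WT, 0.02, 0.03 and 0 TPM in *Ltf*-KO), so its level could not serve as a check of the genotype labels.

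The depth of the libraries is unknown, because the table holds TPM and no read counts. The deposited values summed to 993650 to 994356 TPM per library, and 12828 to 12951 genes reached 1 TPM. All 7 myogenic markers were at 1 TPM or more in every library, with *Pax7* at 36.6 to 43.3 TPM and *Myod1* at 748 to 816 TPM. The 7 myogenic markers summed to 1878 to 1963 TPM, and the markers of each other cell type to less. Those sums were 101 to 136 TPM for 6 fibroblast markers, 3.59 to 11.4 TPM for 5 macrophage markers and 4.50 to 9.85 TPM for 4 endothelial markers. They were 11.7 to 21.8 TPM for 4 Schwann, 0.71 to 2.37 TPM for 3 adipocyte and 9.35 to 12.9 TPM for 3 erythroid markers. *Col3a1* alone gave 88.0 to 118 TPM of the fibroblast sum. The 5 smooth muscle and pericyte markers summed to 450 to 634 TPM, of which *Acta2* alone gave 409 to 593 TPM. The summed level of 9 genes of differentiating muscle ranged from 2496 to 3404 TPM in WT and from 2495 to 3965 TPM in *Ltf*-KO, and was highest in WT replicate 2 and *Ltf*-KO replicate 3.

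Glycolysis breaks glucose down to pyruvate in 10 enzymatic steps and yields ATP without oxygen. Lactate dehydrogenase turns pyruvate into lactate, the pyruvate dehydrogenase complex passes it to the mitochondria, and gluconeogenesis runs the path in reverse through a few enzymes of its own. Several steps are served by more than 1 gene. Adult muscle fibres rely on *Pfkm*, *Pgam2*, *Eno3*, *Aldoa* and *Ldha*, and *Hk2* is the insulin-regulated hexokinase of muscle. *Hk1*, *Pfkl*, *Pfkp*, *Pgam1* and *Eno1* are classed here as ubiquitous forms. At some steps, such as phosphoglycerate mutase and enolase, dividing myoblasts use mainly the ubiquitous form and change toward the muscle form as they fuse into fibres.

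The phosphoglycerate mutase pair shows how muscle and ubiquitous forms differ in sequence and where the gene-level value reaches its limit. *Pgam1* encodes the ubiquitous form and *Pgam2* the muscle form. The table also lists *Pgam1-ps2*, annotated in GENCODE (GRCm38) as a processed pseudogene, an intronless copy, on chr7:27469771-27470535 of the minus strand. The first 150 coding bases of the 3 genes, from the GENCODE transcripts of GRCm38, are shown with the bases that differ from *Pgam1* in capitals.
Pgam1: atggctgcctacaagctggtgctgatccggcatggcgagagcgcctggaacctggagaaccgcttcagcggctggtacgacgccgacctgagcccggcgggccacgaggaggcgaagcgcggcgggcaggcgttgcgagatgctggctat
Pgam1-ps2: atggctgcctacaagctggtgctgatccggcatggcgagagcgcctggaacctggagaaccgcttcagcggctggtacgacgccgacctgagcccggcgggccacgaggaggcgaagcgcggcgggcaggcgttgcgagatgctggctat
Pgam2: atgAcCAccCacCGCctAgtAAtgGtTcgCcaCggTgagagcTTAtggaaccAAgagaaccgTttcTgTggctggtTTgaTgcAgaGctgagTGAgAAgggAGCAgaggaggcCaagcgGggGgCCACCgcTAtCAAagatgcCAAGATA
In this stretch *Pgam2* differed from *Pgam1* at 57 bases and *Pgam1-ps2* at 0. Over the whole coding sequence *Pgam2* and *Pgam1* were identical at 573 of 761 aligned bases (75.3%) with a longest shared run of 28 bases, so that most reads can be given to one or the other. *Pgam1-ps2* was identical to *Pgam1* at all 765 coding bases, so reads from the coding part cannot be told apart and the levels of both are uncertain.

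The windows before the start sites of both genes also differed. The 250 bases upstream of the RefSeq start (GRCm38.p6) were chr19:41911621-41911870 on the plus strand for *Pgam1* and chr11:5803797-5804046 on the minus strand for *Pgam2*. The window of *G6pc3*, the member with the smallest p between the genotypes, was chr11:102189449-102189698 on the plus strand. Capitals mark ACGTG (the core of the hypoxia response element) in *Pgam1*, CTATTTTTA (a sequence bound by MEF2, a muscle transcription factor) in *Pgam2*, and CACGTG (the E-box bound by MYC among others) in *G6pc3*.
Pgam1 window: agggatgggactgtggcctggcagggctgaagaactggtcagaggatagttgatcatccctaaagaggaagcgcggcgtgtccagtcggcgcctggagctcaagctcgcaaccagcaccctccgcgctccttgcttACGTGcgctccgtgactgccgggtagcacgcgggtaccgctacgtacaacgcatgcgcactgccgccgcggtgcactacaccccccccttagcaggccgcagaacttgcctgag
Pgam2 window: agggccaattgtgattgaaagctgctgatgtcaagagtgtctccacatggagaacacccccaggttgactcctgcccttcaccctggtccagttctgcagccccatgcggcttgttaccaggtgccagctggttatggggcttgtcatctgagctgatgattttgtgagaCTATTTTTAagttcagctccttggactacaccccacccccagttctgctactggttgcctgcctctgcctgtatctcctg
G6pc3 window: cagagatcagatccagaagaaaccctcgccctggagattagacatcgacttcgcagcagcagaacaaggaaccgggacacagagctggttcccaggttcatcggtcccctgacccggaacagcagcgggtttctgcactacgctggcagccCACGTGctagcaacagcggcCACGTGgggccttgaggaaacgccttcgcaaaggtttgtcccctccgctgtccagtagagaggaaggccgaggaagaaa
Searched on both strands, ACGTG was in the windows of 18 of 54 members with a window (33.3%), or 15 of the 33 with a mean of at least 1 TPM (45.5%), against 4998 of 27025 genes (18.5%). CTATTTTTA was in 2 of 54 members (3.70%), or 1 of the 33 with a mean of at least 1 TPM (3.03%), against 142 of 27025 genes (0.525%). The 27025 genes were taken at any level. The share among expressed genes was not computed, so the members above 1 TPM lack a like background. CACGTG occurred 2 times in the *G6pc3* window, and each copy also holds ACGTG on both strands. GENCODE (GRCm38) starts *G6pc3* at 102189620, inside this window. By that annotation the end of the window, with its later CACGTG, lies within the gene. These matches are a description of the letters in a window and carry no test of binding.

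The steps were transcribed at very unequal levels. Of the 10 steps, 9 have member genes, and triosephosphate isomerase (*Tpi1*, 403 to 455 TPM) is left out of the order that follows. *Gapdh*, the oxidation step, was the highest member in every library at 7316 to 7848 TPM, the 7th highest mean of all genes. Pyruvate kinase followed at 3178 to 3386 TPM, enolase at 2843 to 3006 TPM and aldolase at 1583 to 1712 TPM, each summed over its member genes. Phosphoglycerate kinase lay at 841 to 927 TPM, phosphoglycerate mutase at 594 to 620 TPM and glucose-phosphate isomerase (*Gpi1*) at 299 to 315 TPM. Hexokinase at 105.5 to 116 TPM and phosphofructokinase at 98.4 to 117 TPM, the entry step and the committed step, were the lowest, and their ranges over the libraries overlapped. The ranges of all other neighbouring steps among the members were apart, and lactate dehydrogenase (1400 to 1518 TPM) fell between aldolase and phosphoglycerate kinase. The 64 members together took 2.003% to 2.08% of all TPM.

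**Figure D1:**
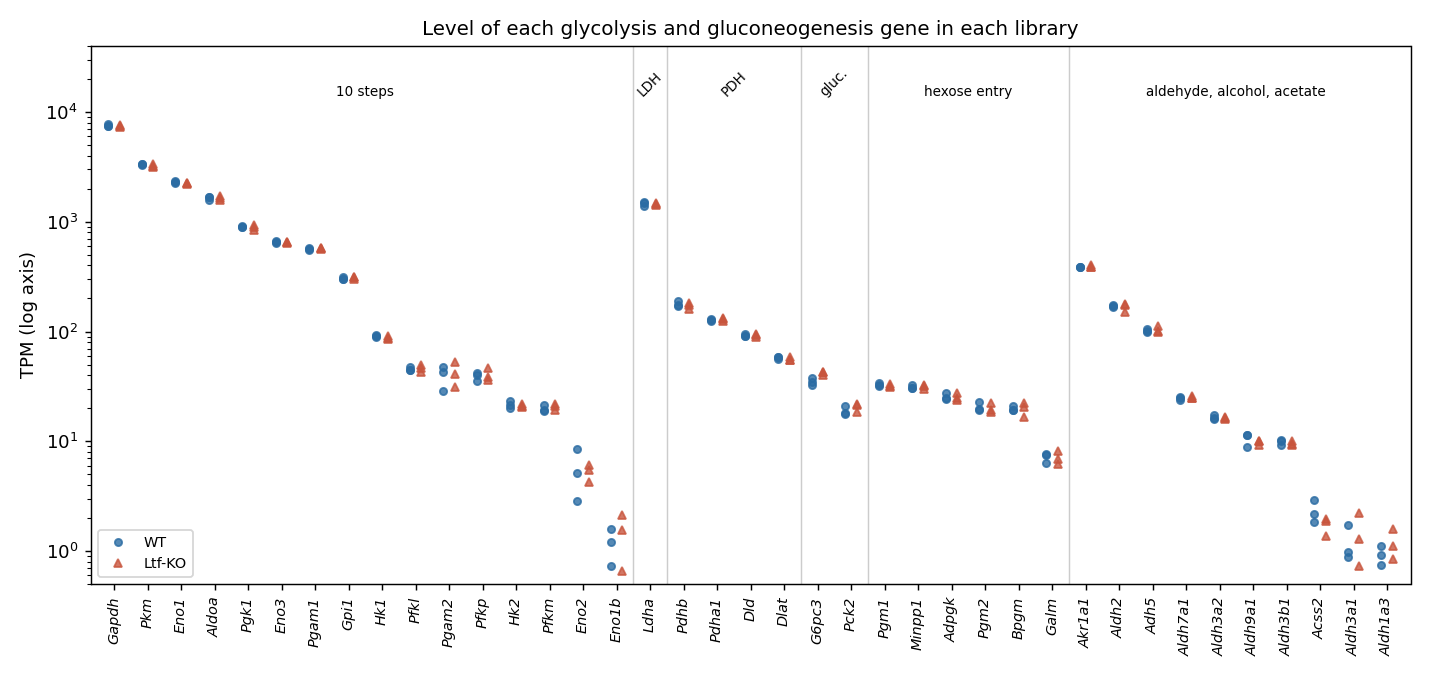
TPM (log axis) of the 39 members with a mean of at least 1 TPM in each of the 6 libraries, with circles for WT and triangles for *Ltf*-KO, ordered by level within the role groups (LDH, lactate dehydrogenase; PDH, pyruvate dehydrogenase; gluc., gluconeogenesis). The genes run from *Gapdh* at over 7316 TPM to members near 1 TPM, and the genotypes lie on top of each other for nearly all of them.

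Muscle and ubiquitous forms were used differently from step to step. In aldolase, *Aldoa* made up 99.94% of the family TPM in both genotypes, and in pyruvate kinase *Pkm* made up nearly all of it. *Pkm* yields a muscle and a proliferation splice form, which a gene-level value does not separate. *Ldha*, the muscle form of lactate dehydrogenase, made up 97.17% ± 0.110 in WT and 97.11% ± 0.197 in *Ltf*-KO (SD, n = 3) when *Ldhb* was counted in the family. In these 3 families the muscle form is also the form of many other cells.

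The other 4 families used mainly the ubiquitous form. *Eno3*, the muscle enolase, held 21.5%, 22.8% and 22.0% of enolase TPM in WT and 22.9%, 22.6% and 22.1% in *Ltf*-KO. *Hk2* held 18.5%, 19.1% and 20.0% of hexokinase TPM in WT and 19.3%, 19.3% and 19.4% in *Ltf*-KO. *Pfkm* held 18.4%, 20.5% and 18.1% of phosphofructokinase TPM in WT and 19.7%, 19.6% and 18.8% in *Ltf*-KO. The genotypes overlapped in all 3 families. *Pgam2* held the smallest share, 6.89%, 7.96% and 4.87% in WT and 6.75%, 5.10% and 8.60% in *Ltf*-KO, and its libraries also lay farthest apart in relation to their mean. Adding *Pgam1-ps2* to the sum, a choice made after the values were seen, lowered it to 5.77% ± 1.68 in WT and 5.96% ± 1.67 in *Ltf*-KO (SD, n = 3). Although *Eno3* and *Pgam2* are both classed as muscle forms, *Eno3* was the 7th most abundant member at 640 to 673 TPM, while *Pgam2* lay at 28.9 to 52.8 TPM.

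**Figure D2:**
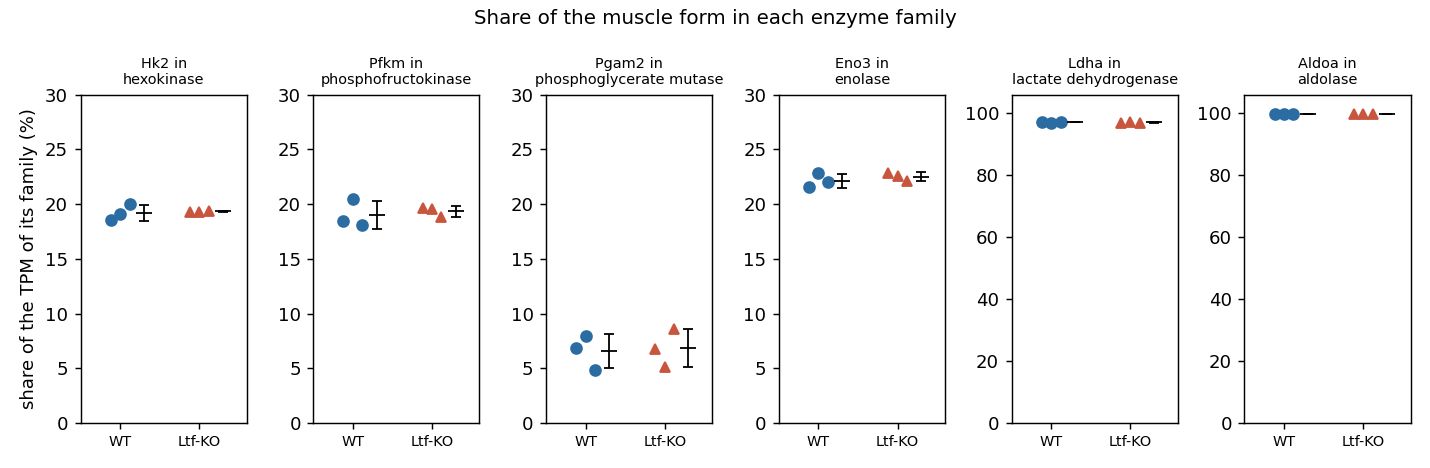
Share of the muscle form in the summed TPM of its family (%), per library, with circles for WT, triangles for *Ltf*-KO, and the mean ± SD of 3 libraries beside them. All axes start at 0, and the last 2 panels have a wider axis than the first 4. *Hk2*, *Pfkm* and *Eno3* lie near 20%, *Pgam2* between 4.87% and 8.60%, and the genotypes overlap in every panel.

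The shares of the muscle forms did not differ between the genotypes beyond the spread of the libraries. *Ltf*-KO minus WT was 0.122 percentage points for *Hk2* (SE 0.426; exact permutation p = 0.7), 0.342 for *Pfkm* (SE 0.812; exact p = 0.8), 0.244 for *Pgam2* (SE 1.36; exact p = 0.8), 0.392 for *Eno3* (SE 0.451; exact p = 0.4) and -0.061 for *Ldha* (SE 0.130; exact p = 0.7). The adjusted p was 1.0 for all 7 families tested, and the two-sided exact permutation test of 3 against 3 libraries cannot give a p below 0.1. For *Hk2*, *Pfkm*, *Pgam2* and *Ldha*, and for *Aldoa* (-0.000344 percentage points), the sign of the difference changed when single libraries were left out. The *Eno3* difference kept its sign, but was 0.0955 when WT replicate 1 was dropped and 0.756 when WT replicate 2 was. Fructose bisphosphatase was not tested because *Fbp1* and *Fbp2*, its liver and muscle forms, together reached at most 0.1 TPM.

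Among libraries, the muscle form *Pfkm* moved with the genes of differentiating muscle by Pearson's correlation, which was computed for 7 muscle forms only. *Pgam2* had a similar coefficient that missed the adjusted threshold, and *Eno3* had a coefficient near 0. *Pgam2* was at 42.7, 47.8 and 28.9 TPM in WT and 41.3, 31.0 and 52.8 TPM in *Ltf*-KO. The mean log2(TPM + 1) of the 9 differentiation markers was 6.99, 7.34 and 6.85 in WT and 7.16, 6.84 and 7.57 in *Ltf*-KO. In both genotypes the library with the highest marker level therefore also had the highest *Pgam2*, and the library with the lowest had the lowest. Over 6 libraries, Pearson's r of *Pgam2* with the marker level was 0.92 (exact permutation p = 0.0153, adjusted over 7 relations 0.0535) and Spearman's rho was 0.89 (exact p = 0.0333, adjusted 0.136). Without the 2 libraries farthest from the median marker level, *Ltf*-KO replicate 3 and WT replicate 2, r was 0.84, and it was 0.85 within WT and 0.99 within *Ltf*-KO, at 3 libraries each.

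*Pfkm*, the muscle form of phosphofructokinase, was at 19.2, 21.4 and 19.1 TPM in WT and 20.9, 19.3 and 22.1 TPM in *Ltf*-KO. Its r with the marker level was 0.96 (exact permutation p = 0.00556, adjusted 0.0389) and its rho 0.83 (exact p = 0.0583, adjusted 0.136). Without the same 2 libraries r was 0.88, and it was 0.97 within WT and 0.98 within *Ltf*-KO. *Pfkm* was thus the 1 of 7 muscle forms whose Pearson correlation passed the adjusted threshold, and no rank correlation passed it. The same share over other genes was not computed. *Pfkl*, classed here as a ubiquitous form, was at 44.64, 47.65 and 44.17 TPM in WT and 46.59, 42.87 and 49.03 TPM in *Ltf*-KO. Its libraries stood in the same order as the marker level, so the pattern was not particular to the muscle forms. *Aldoa* had an r of 0.77 (exact p = 0.0806, adjusted 0.188), which fell to 0.56 without the 2 libraries. *Eno3* had an r of -0.16 (exact p = 0.764, adjusted 0.764) over a range of only 9.32 to 9.40 on the log2(TPM + 1) scale, while *Pgam2* ranged from 4.90 to 5.75. For *Eno3* r was 0.81 within WT, -0.99 within *Ltf*-KO and -0.67 without the 2 libraries, so its coefficient had no common sign in the genotypes. Within *Ltf*-KO r was 0.998 for *Aldoa* and 0.99 for *Ldha*, beside 0.55 and 0.031 within WT, at 3 libraries each. *Hk2* (r -0.59, exact p = 0.204, adjusted 0.303), *Pkm* (r -0.58, exact p = 0.217, adjusted 0.303) and *Ldha* (r 0.29, exact p = 0.554, adjusted 0.647) did not pass either. *Pkm* had a rho of -0.83 (exact p = 0.0583, adjusted 0.136), and *Hk2* and *Ldha* had rho of -0.54 (exact p = 0.297, adjusted 0.416) and 0.26 (exact p = 0.658, adjusted 0.658). *Aldoa* had a rho of 0.77 (exact p = 0.103, adjusted 0.18) and *Eno3* of -0.37 (exact p = 0.497, adjusted 0.58). In bulk libraries, fewer differentiating cells and less RNA of these genes per cell cannot be told apart, and whether the correlations of *Pgam2* and *Eno3* differ was not tested.

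**Figure D3:**
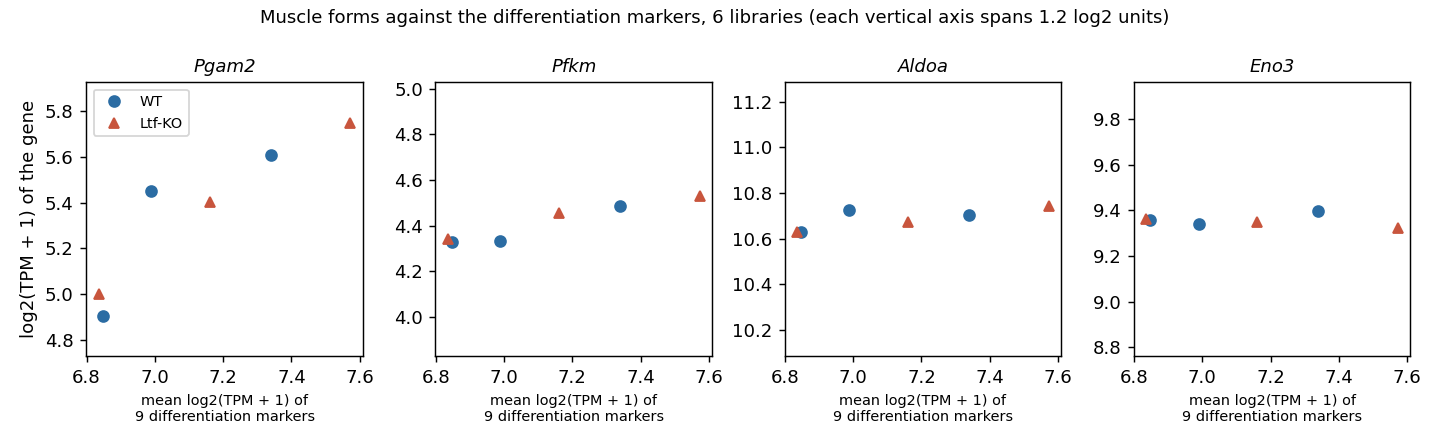
Level of 4 muscle forms, as log2(TPM + 1), against the mean log2(TPM + 1) of the 9 markers of differentiating muscle in the 6 libraries, with circles for WT and triangles for *Ltf*-KO. Every vertical axis spans the same width. *Pgam2* climbs from 4.90 to 5.75 along the marker level, *Pfkm* climbs over a smaller range, and *Eno3* stays between 9.32 and 9.40.

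The members whose pattern over the 6 libraries was most like *Pgam2*, of 38 compared, were *Aldoa* (r 0.93, rho 0.94), *Pfkl*, the liver form of phosphofructokinase (r 0.89, rho 0.89), and *Pfkm* (r 0.83, rho 0.83). Those most like *Eno3* were *Aldh3a2*, a fatty aldehyde dehydrogenase (r 0.67, rho 0.14), *Hk1* (r 0.66, rho 0.71) and *Galm*, the aldose mutarotase (r 0.53, rho 0.60). These values describe likeness in 6 libraries that share their preparation and scaling, and the set near *Eno3* was only loosely alike.

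Between *Ltf*-KO and WT, 0 of the 39 members with a mean of at least 1 TPM passed limma's test at an adjusted p under 0.05, as did 0 of all 12956 genes tested (0.0%). At an unadjusted p under 0.05, 1 of 39 members (2.56%) passed, against 490 of 12956 genes (3.78%). That member, *G6pc3*, was higher in *Ltf*-KO, against a background of 2.01% of genes higher at that threshold. Lower at it by limma were 0 of 39 members, against a background of 1.78%. The libraries of the genotypes did not overlap for 2 members, *G6pc3* and *Eno1* (5.13%), against 8.46% of all genes. None of the members' shares stood clearly above its background, and no test was made of the group. On the log2(TPM + 1) scale 18 members were on the higher and 21 on the lower side, with a median of -0.0052 and a range of -0.26 to 0.26, beside a median of 0.011 over all genes tested.

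**Figure D4:**
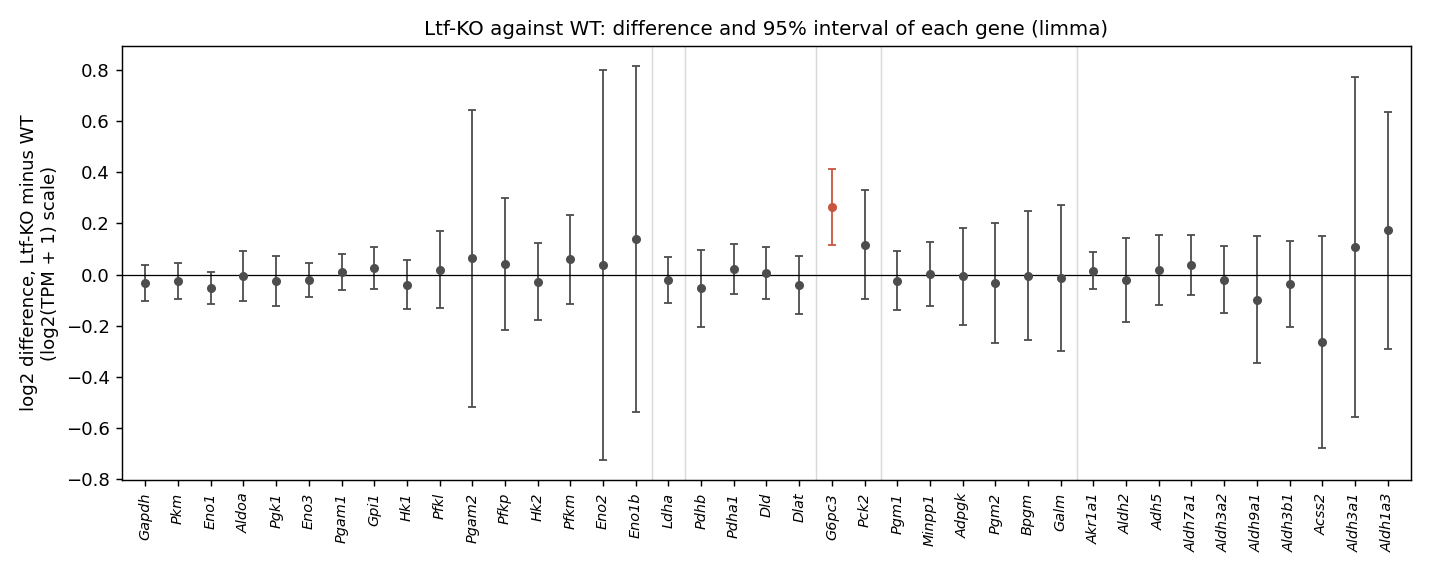
Difference *Ltf*-KO minus WT of each of the 39 tested members on the log2(TPM + 1) scale, with its 95% interval from limma, ordered as in the plot of levels. All intervals but that of *G6pc3* (0.26, red) include 0, and the intervals are narrow for abundant enzymes and wide for *Pgam2*, *Eno2* and members near 1 TPM.

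For the abundant enzymes the intervals were narrow. *Gapdh* was at 7848, 7509 and 7512 TPM in WT and 7383, 7316 and 7651 TPM in *Ltf*-KO. Its level in *Ltf*-KO was -2.26% relative to WT (95% interval -6.95% to 2.67%, limma). *Pkm* was at 3330, 3311 and 3336 TPM in WT and 3178, 3386 and 3251 TPM in *Ltf*-KO (-1.67%, interval -6.34% to 3.22%). The WT values of *Pkm* fell inside the *Ltf*-KO range. *Eno1*, the ubiquitous enolase, was at 2349, 2268 and 2320 TPM in WT and 2186, 2243 and 2251 TPM in *Ltf*-KO. All 3 *Ltf*-KO libraries lay below all WT libraries, but the difference was small (-3.69%, interval -7.77% to 0.562%). It did not pass limma's test, with an unadjusted p of 0.078 and an adjusted p of 0.999.

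*Aldoa*, which splits fructose bisphosphate, was at 1695, 1667 and 1582 TPM in WT and 1631, 1584 and 1711 TPM in *Ltf*-KO (-0.359%, interval -6.88% to 6.61%). *Ldha*, which makes lactate, was at 1400, 1492 and 1518 TPM in WT and 1441, 1423 and 1482 TPM in *Ltf*-KO (-1.42%, interval -7.40% to 4.96%). *Pgk1*, which makes the first ATP of the path, was at 887, 919 and 898 TPM in WT and 890, 841 and 927 TPM in *Ltf*-KO (-1.79%, interval -8.24% to 5.11%). The genotypes overlapped in all 3, and differences beyond 10% either way lay outside their intervals. *Eno3* (-1.46%, interval -5.95% to 3.24%), *Pgam1* (0.731%, interval -3.97% to 5.67%) and *Gpi1* (1.77%, interval -3.83% to 7.68%) overlapped as well.

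The hexokinase and phosphofructokinase genes were lower in level and also overlapped. *Hk1* was at 88.8, 90.2 and 92.4 TPM in WT and 88.0, 91.0 and 85.03 TPM in *Ltf*-KO (-2.69%, interval -9.01% to 4.06%). *Hk2* was at 20.3, 21.3 and 23.1 TPM in WT and 21.1, 21.8 and 20.4 TPM in *Ltf*-KO (-1.90%, interval -11.6% to 8.91%). *Hk1* therefore exceeded *Hk2* in every library, and *Hk3* and *Hkdc1* stayed at or under 0.16 TPM. *Pfkl* at 42.9 to 49.0 TPM and *Pfkp*, the platelet form, at 35.3 to 46.4 TPM both exceeded *Pfkm*, with differences of 1.36% (interval -8.57% to 12.4%), 2.90% (interval -13.9% to 23.0%) and 4.21% (interval -7.68% to 17.6%) for *Pfkl*, *Pfkp* and *Pfkm*. Least precise was *Pgam2*, at 4.43% with an interval of -30.2% to 56.1%, so that its difference was known far less closely than that of the other enzymes of the path named above.

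The enolases of other kinds were near the floor. *Eno2*, the neuronal enolase, was at 8.50, 2.86 and 5.13 TPM in WT and 5.46, 6.11 and 4.29 TPM in *Ltf*-KO, with an interval of -39.5% to 74.2% for TPM + 1. *Eno1b* was at 0.66 to 2.11 TPM, and its coding sequence matched that of *Eno1* at 1297 of 1305 bases (99.39%) with a longest shared run of 725 bases, so its value is uncertain because reads can match both. Summed over the 26 member genes of the path from hexokinase to pyruvate kinase, which leave out *Tpi1*, the libraries held 17911, 17469 and 17427 TPM in WT and 17066, 17153 and 17591 TPM in *Ltf*-KO, and the genotypes overlapped.

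Among the gluconeogenesis genes, 2 of 7 were above the floor, and both leaned higher in *Ltf*-KO. *G6pc3* encodes the ubiquitous glucose-6-phosphatase, which is known for its need in neutrophils. It was at 37.6, 32.6 and 34.6 TPM in WT and 42.7, 43.1 and 40.6 TPM in *Ltf*-KO. Every *Ltf*-KO library lay above every WT library, with a log2 difference of 0.26 (SE 0.062), or 20.1% (95% interval 8.33% to 33.1%). The unadjusted limma p was 0.00439 and ranged from 0.00184 to 0.0186 over the alternatives, but the adjusted p was 0.999 and ranged from 0.946 to 1.0, so the gene did not pass the correction over all genes. The macrophage markers, which include *Lyz2*, summed to 4.46 to 11.4 TPM in WT and 3.59 to 4.68 TPM in *Ltf*-KO, and their part in the value of *G6pc3* was not tested. The study's methods describe a sort for CD11b-negative cells but list no antibody to CD11b. They do list a stain for CD45, a marker of white blood cells. In the sequenced cells *Lyz2* lay at 0.38 to 7.22 TPM and *Cd68*, another of these markers, at 3.12 to 3.98 TPM. The remaining macrophage markers were near 0, with *Csf1r* at 0.05 to 0.39 TPM, *Ptprc* at 0 to 0.16 TPM and *Adgre1* at 0 to 0.08 TPM. Whether macrophages remained was not tested. *Pck2*, the mitochondrial phosphoenolpyruvate carboxykinase, was at 17.7, 21.0 and 18.1 TPM in WT and 21.2, 18.7 and 21.9 TPM in *Ltf*-KO (8.37%, interval -6.52% to 25.6%), with overlap. The classical liver genes of the path were nearly silent, with *Pck1* at 0.18 to 0.31 TPM, *G6pc* at no more than 0.06 TPM, *Fbp1* at 0.05 to 0.1 TPM, *Fbp2* at no more than 0.05 TPM and *G6pc2* listed at 0 TPM in every library.

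**Figure D5:**
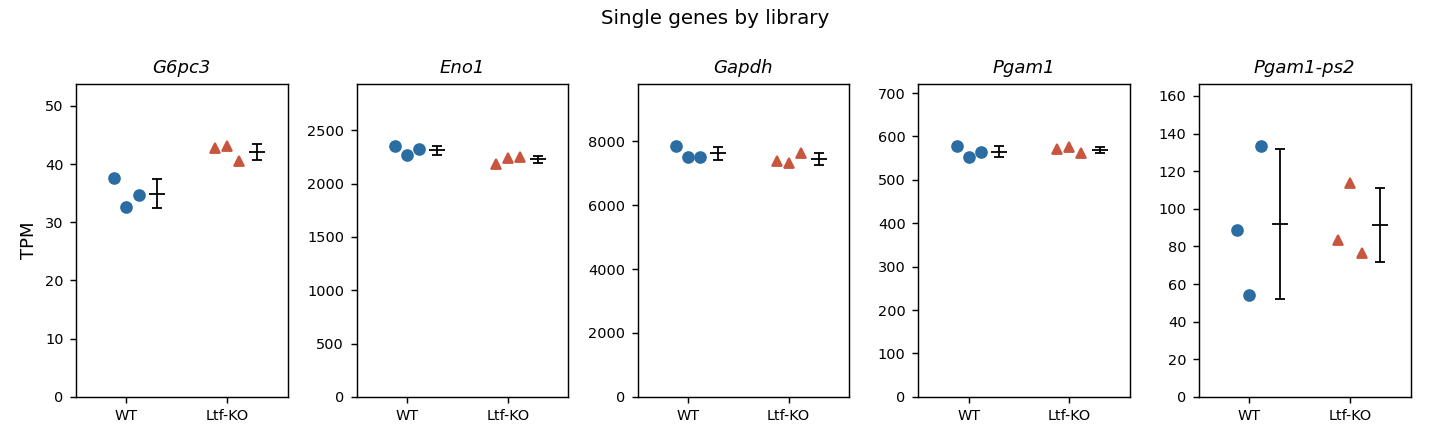
TPM of *G6pc3*, *Eno1*, *Gapdh*, *Pgam1* and *Pgam1-ps2* in each library, with circles for WT, triangles for *Ltf*-KO and the mean ± SD of 3 libraries beside them, on axes that start at 0. *G6pc3* and *Eno1* are the 2 tested members whose genotypes do not overlap, and *Pgam1-ps2* spreads from 53.9 to 133 TPM while *Pgam1* stays between 553 and 577 TPM.

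*Pgam1* and its copy differed in how steady they were. *Pgam1* was at 577, 553 and 565 TPM in WT and 571, 576 and 562 TPM in *Ltf*-KO. *Pgam1-ps2* was at 88.9, 53.9 and 133 TPM in WT and 83.5, 114 and 76.6 TPM in *Ltf*-KO, a coefficient of variation of 43.2% and 21.6%. Both genotypes overlapped for the copy (log2 difference 0.061, interval -0.71 to 0.84). Their sum was 666, 607 and 699 TPM in WT and 654, 689 and 638 TPM in *Ltf*-KO. Of 13 listed pseudogenes named after these enzyme genes, *Pgam1-ps2* was the 1 with a mean of at least 1 TPM. How the reads that match both were shared out is not given in the sources used here.

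The pyruvate dehydrogenase genes showed no difference beyond their spread. Of the 5 members 4 were tested, 2 on each side of 0. *Pdhb*, the beta subunit of the first enzyme, was at 175, 172 and 188 TPM in WT and 183, 159 and 174 TPM in *Ltf*-KO (-3.61%, interval -13.2% to 7.01%). *Pdha1*, the alpha subunit, was at 124 to 131 TPM in WT and 125 to 134 TPM in *Ltf*-KO (1.497%, interval -5.19% to 8.66%). *Dld*, the shared dihydrolipoamide dehydrogenase, was at 90.1 to 95.7 TPM in WT and 89.9 to 95.2 TPM in *Ltf*-KO (0.425%, interval -6.35% to 7.68%). The testis form *Pdha2* was listed at 0 TPM in every library.

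Of the 6 genes of sugar entry and bisphosphoglycerate turnover, all were tested, 1 on the higher and 5 on the lower side, with a median log2 difference of -0.0099 and none passing. *Pgm1*, a phosphoglucomutase that links glycogen to glycolysis, was at 32.2 to 33.6 TPM in WT and 31.4 to 33.5 TPM in *Ltf*-KO (-1.62%, interval -9.13% to 6.52%). *Minpp1*, an inositol phosphate phosphatase that also acts on bisphosphoglycerate, was at 30.7 to 32.8 TPM in WT and 30.1 to 32.3 TPM in *Ltf*-KO (0.134%, interval -8.08% to 9.09%). *Adpgk*, the ADP-dependent glucokinase, was at 24.2 to 27.7 TPM in WT and 24.0 to 27.7 TPM in *Ltf*-KO (-0.483%, interval -12.7% to 13.4%). Of the 17 aldehyde, alcohol and acetate genes 10 were tested, 5 on each side. *Akr1a1*, an aldehyde reductase, was the highest at 384 to 404 TPM and its genotypes overlapped (1.10%, interval -3.86% to 6.30%). *Aldh2*, the mitochondrial aldehyde dehydrogenase, was at 167 to 174 TPM in WT and 151 to 179 TPM in *Ltf*-KO (-1.45%, interval -12.1% to 10.5%). *Adh5*, the formaldehyde-clearing dehydrogenase, was at 99.4 to 104.8 TPM in WT and 98.3 to 112 TPM in *Ltf*-KO (1.22%, interval -7.90% to 11.2%). The lowest difference of any tested member was that of *Acss2*, an acetate-activating enzyme named after its value was seen, at 1.38 to 2.91 TPM (-16.7%, interval -37.5% to 10.97%). That percentage is of TPM + 1 and understates the change at this low level, where the means were 2.297 TPM in WT and 1.733 TPM in *Ltf*-KO.

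The other members below 1 TPM were mainly forms of other tissues. *Pklr*, the pyruvate kinase of liver and red blood cells, did not exceed 0.02 TPM, and the brain aldolase *Aldoc* stayed at 0.22 to 0.81 TPM. The germ cell forms *Ldhc*, *Pgk2*, *Gapdhs* and *Aldoart1* were listed at 0 TPM in all 6 libraries. A value of 0 here does not give a limit, because the counts behind it are unknown.

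At a mean of 10 TPM or more, the members had median coefficients of variation no higher than those of all genes in the same range. At a mean of 100 TPM or more, the median coefficient of variation over replicates of 14 members was 2.17% in WT and 2.99% in *Ltf*-KO, beside 3.42% and 3.55% over 1391 genes. From 10 to 100 TPM it was 5.51% and 4.75% for 18 members, beside 5.58% and 5.85% over 6681 genes. From 1 to 10 TPM it was 24.3% and 17.8% for 7 members, beside 14.1% and 14.1% over 4884 genes, so the low members were the more variable ones. Levels were not matched within a range, and the top range has no upper limit and includes *Gapdh* at a mean of 7536 TPM. These medians are a description with no test.

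Genes that feed, drain or regulate the path were taken from a list of 42 that covers glucose and lactate transport, the bisphosphate enzymes that steer phosphofructokinase, pyruvate dehydrogenase kinases and phosphatases, pyruvate carriers, glycogen turnover, hypoxia and MYC regulators, the pentose phosphate path and serine synthesis. Of them 37 were tested, 21 on the higher and 16 on the lower side, with a median log2 difference of 0.0056, and 0 passed limma's adjusted threshold. At an unadjusted p under 0.05 there were 2, beside the background of 3.78%. *Pfkfb1*, which makes and breaks the activator of phosphofructokinase, was at 5.22, 4.01 and 3.23 TPM in WT and 2.04, 3.0 and 3.18 TPM in *Ltf*-KO. All *Ltf*-KO libraries lay below all WT libraries, though narrowly, with a log2 difference of -0.46 (SE 0.19). Limma gave *Pfkfb1* an unadjusted p of 0.0491 and an adjusted p of 0.999. *Psph*, the last enzyme of serine synthesis, was at 41.1, 41.4 and 44.9 TPM in WT and 48.0, 49.4 and 45.1 TPM in *Ltf*-KO, with a log2 difference of 0.16 (SE 0.056). Its genotypes did not overlap either. Limma gave *Psph* an unadjusted p of 0.0289 and an adjusted p of 0.999, so neither *Pfkfb1* nor *Psph* passed the correction. The genotypes also did not overlap for *Pfkfb3* (4.07 to 4.18 TPM in WT, 4.53 to 5.04 TPM in *Ltf*-KO) and *Tigar* (11.33 to 11.56 and 11.85 to 13.14 TPM). Both are listed bisphosphate enzymes and were higher in *Ltf*-KO, with unadjusted limma p of 0.115 and 0.157. Over all genes tested, 8.46% did not overlap.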

How the data were processed

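RNA-seq of SCs grown for 4 days covered 3 WT and 3 *Ltf*-KO libraries. The authors deposited 1 table with 2 decimals, normalised by the sequencing company, whose unit is not named in the sources used here and was taken as TPM from its values. Each library summed to just under the total that defines TPM, and over 6140 genes with 1 GENCODE transcript and a 0 in some library the smallest value above 0 fell with length (Spearman's rho -0.91 across genes, which are not replicates). Its median was 0.535 in transcripts under 500 bases and 0.03 in those of 2000 bases or more. The submitters' processing notes name GRCm39, and the aligner, counter, annotation release and multi-mapping rule are not given in the sources used here. GRCm38 positions and sequences are therefore from RefSeq and GENCODE, not from the files. Read counts were not analysed here, so depth and counting error are unknown. Groups came from the genotype labels. Library pairs correlated at 0.972 to 0.978 and held about 1% identical values, so no library was a copy of another.

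Genes whose mean over the 6 libraries reached 1 TPM were fitted with limma 3.58.1 (R 4.3.3, variance trend) on log2(TPM + 1), two-sided, with Benjamini-Hochberg adjustment over all of them. A difference on this scale understates the change of low genes. All percentages of *Ltf*-KO relative to WT and their intervals were converted from it, so they are changes of TPM + 1. The fit was tested on simulated data with independent noise and known changes larger than those of the members, so that test does not cover small changes. Shares and correlations used exact permutation tests, coded directly by listing all permutations. The rank correlations of members with *Eno3* and *Pgam2* were computed with scipy 1.17.1. Figures were drawn with matplotlib 3.10.9 and sequences aligned with Biopython 1.88. Alternatives were a pseudocount of 0.1, no filter, a floor of 10 TPM, quantile and median-of-ratios scaling, no variance trend, a replicate block and leaving out each library. Members and lists were chosen with earlier results of these data known. Named were all tested members that encode enzymes of the 10 steps or lactate dehydrogenase (*Tpi1* and *Ldhb* are no members), members and listed neighbours at an unadjusted p under 0.05, the 3 most abundant members of each other role, and the 3 members most like *Eno3* and *Pgam2*. The values of some members are not reported here.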

Additional observations from a re-analysis of the deposited data

How the results depend on the processing

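The adjusted threshold of 0.05 was passed by 0 members in the fit reported (limma) and in each alternative to it, and *G6pc3* passed the unadjusted threshold in each, except that with no variance trend only counts were made (0 of all genes adjusted, 1 member unadjusted). The count of members at that threshold was 1, and ranged from 1 to 2 when single libraries were left out; it was 2 without WT replicate 3, where *Aldh9a1* joined. The count of neighbour genes was 2, and became 1 with no filter, 1 at a mean of at least 10 TPM and 0 with the replicate block, and ranged from 0 to 2 with a library left out (0 without *Ltf*-KO replicate 1, 1 without WT replicate 1 or 2). Over all genes the adjusted count was 0 with all 6 libraries and 0 to 6 with one left out. Of 490 genes at the unadjusted threshold 230 were lower in *Ltf*-KO, against 302 of 508 with quantile and 289 of 502 with median-of-ratios scaling, 890 in all with no filter and 281 at a mean of at least 10 TPM. Same-numbered WT and *Ltf*-KO libraries did not deviate together (correlations of -0.041, -0.058 and -0.088), so the numbers gave no pairing, and the replicate block left the member counts at 0 and 1. Quantile scaling reversed the *Hk2* share to -0.0622 and the *Aldoa* share to 0.000203 percentage points. With a library left out, the share differences in percentage points ranged from -0.218 to 0.513 for *Hk2*, from -0.129 to 1.1 for *Pfkm*, from -0.00709 to 0.0122 for *Aldoa*, from -0.646 to 1.1 for *Pgam2*, from 0.0955 to 0.756 for *Eno3* and from -0.174 to 0.00751 for *Ldha*. On the log2 scale, quantile scaling reversed *Eno3* (0.0033) and *Minpp1* (-0.0093), and median-of-ratios scaling *Pgam1* (-0.0017), *Dld* (-0.006) and *Minpp1* (-0.0099). Leaving out a library gave ranges on both sides of 0 for *Aldoa* (-0.0352 to 0.0204), *Ldha* (-0.0551 to 0.0031), *Pgk1* (-0.0594 to 0.0109), *Pgam1* (-0.005 to 0.0259), *Pfkl* (-0.0241 to 0.0707), *Pgam2* (-0.1462 to 0.2553), *Pfkp* (-0.0585 to 0.1146), *Hk2* (-0.0695 to 0.021), *Eno2* (-0.2904 to 0.3593), *Eno1b* (-0.0583 to 0.3946), *Pdhb* (-0.1003 to 0.0031), *Dld* (-0.0137 to 0.0332), *Minpp1* (-0.018 to 0.0323), *Adpgk* (-0.0682 to 0.0513), *Akr1a1* (-0.0052 to 0.0305), *Aldh2* (-0.0674 to 0.0564) and *Adh5* (-0.0389 to 0.0529). Of 30 named genes, 12 kept their direction under every alternative run. The cause of these shifts was not tested.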
